A study of Mus musculus with 11 samples.

Results

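Olfactory receptor genes with reads were examined in KP1 cells, a mouse small cell lung cancer (SCLC) line. The members were the genes with a symbol of Olfr followed by a digit that are not annotated as pseudogenes and whose estimated reads, summed over 5 bulk RNA sequencing libraries, came to at least 100. These were 47 of the 1135 such genes in the files (4.14%). Another 508 held some reads but fewer than 100, and 580 held none. The members were thus chosen on their level, and their summed reads are a description. Just inside the limit lay Olfr250 with 100.2 reads, Olfr1278 with 100.5 and Olfr718-ps1 with 100.9, and just outside it lay Olfr472 with 99.4, Olfr802 with 98.4 and Olfr1264 with 97.6.

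KP1 cells carry inactivated Rb and p53 and grow in suspension in serum-containing medium. The control group was untreated KP1 cells (replicates 2 and 3), and the irradiated group was KP1 cells given 5 Gy (replicates 1, 2 and 3), all at the 24 h time point. Both groups come from this 1 cell line, and no label says whether the replicates are separate cultures, so p-values measure only the spread between these libraries, which may be technical. The libraries held 21185956 to 31036317 estimated reads. The read-weighted mean length of the transcripts was 5465 and 4731 bases in the controls and 3716, 3626 and 3999 bases in the irradiated libraries, so the irradiated libraries held fewer of their reads in long transcripts.

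Olfactory receptors are G protein-coupled receptors of the cilia of olfactory sensory neurons, where they bind odorants and signal through the G protein subunit Gnal, the adenylyl cyclase Adcy3 and a cyclic nucleotide-gated channel. Their genes form the largest gene family in the mouse and lie in clusters that are silent in most cells, and each sensory neuron expresses a single receptor. A typical receptor gene has its coding sequence in 1 exon, preceded by short noncoding exons that are spliced to it. Transcript levels of these genes in other cell types say nothing by themselves about receptor protein.

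Most members kept the sequence that is characteristic of the family. A search of the translated coding sequence for Met, any 2 residues, Asp, Arg or Cys, and Tyr or Phe, which covers the conserved Asp-Arg-Tyr triplet next to the third membrane-spanning segment, found a match in 46 of 47 members, Olfr859 being the exception. Any coding transcript of the gene could give the match. In Olfr1033, Olfr1459, Olfr1330, Olfr1385, Olfr56 and Olfr354 it came from a transcript other than the one with the most reads. The 30 coding bases around it are shown for the 3 members with the most reads and for 2 pairs of genes that neighbour each other on the same strand (Olfr1388 with Olfr1385, and Olfr1309 with Olfr1307), because reads of related genes can be divided between them only where their sequences differ. The capitals mark the 3 codons of the triplet, and the sequences are from the GENCODE M21 transcripts. That of Olfr1385 is from Olfr1385-202, while most of its reads lay on Olfr1385-203, which has no coding sequence.
Olfr784: atgtcttatGACCGCTTTgtagccatctgc
Olfr1388: atggcctttGACCGCTATgctgctgtgtgt
Olfr1385: atggcttttGACCGCTATgctgctgtgtgt
Olfr648: atggcatttGATCGCTATgtggccatctgt
Olfr1309: atggcttttGACAGATATgtagccatatgc
Olfr1307: atggcctttGACAGATATgtggccatatgt

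These stretches were not unique to a gene in every case. Olfr2, Olfr1378 and Olfr46 shared all 30 bases, as did Olfr147 and Olfr1247. Over a whole leading transcript (the transcript of a gene with the most reads), the share of its 31-base words that also occurred in a transcript of another gene ranged from 0.12% in Olfr1402 to 53.8% in Olfr1385, with a median of 10.97%. It was under 10% in 21 members and over 25% in 9.

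Most markers went with the labelled cell type. All 10 neuroendocrine markers held at least 100 reads. Of 12 markers of olfactory sensory neurons, 10 held fewer than 100 reads over all libraries. Among them, Omp, the marker of mature sensory neurons, held 11 reads, the channel subunit Cnga2 held 8, the receptor chaperone Rtp1 held 1 and its relative Rtp2 held 0. The markers Gnal and Adcy3 went the other way, with 4705 and 9313 reads. Of 7 leukocyte markers 6 held fewer than 100 reads, as did 3 of 5 markers of fibroblasts and endothelium. The exceptions were Cd68, Pecam1 and, far above 100 reads, Pdgfra.

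The reads of the members were very unequal. Olfr784 and Olfr1388 together held 70.9% of the 43425.6 reads of all members, and the 5 members with the most reads held 83.0%. The other 42 members held between 100 and 400 reads each over 5 libraries, with a median of 147.

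**Figure D1:**
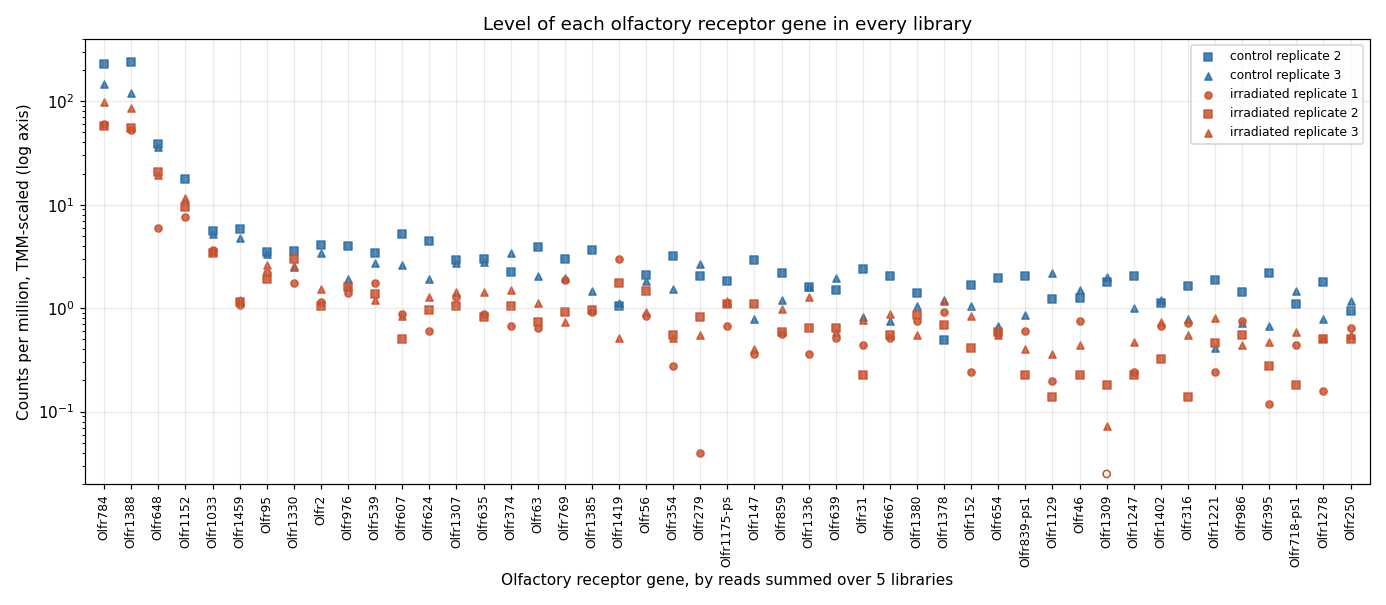
Level of each of the 47 olfactory receptor genes in CPM (counts scaled to library size by TMM, log axis), with 1 point per library and the genes ordered by summed reads. Blue points are controls and orange points irradiated libraries, and an open symbol at the lower edge is a library at 0 (Olfr1309 in irradiated replicate 1). In 38 of 47 genes all irradiated points lie below both control points.

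Olfr784 (chromosome 10, 129384083 to 129390198, plus strand, mm10) held 6518 and 3906 reads in control replicates 2 and 3 and 1498, 1257 and 2716 reads in irradiated replicates 1, 2 and 3. Per length and depth this was 146 and 96.9 TPM in the controls and 31.9, 29.1 and 55.5 TPM in the irradiated libraries. The 3 irradiated libraries lay below both controls, and control replicate 2 stood well above control replicate 3. In control replicates 2 and 3 its TPM was above that of 92.8% and 88.8% of the genes with reads. In irradiated replicates 1, 2 and 3 it was above that of 71.7%, 70.8% and 81.8%.

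Olfr1388 (chromosome 11, 49436624 to 49446103, plus strand) followed the same order of libraries. It held 6761 and 3218 reads in the controls and 1311, 1216 and 2385 reads in the irradiated libraries, or 157 and 82.3 TPM against 28.8, 29.0 and 50.2 TPM. The groups did not overlap, and control replicate 2 was again the highest library.

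Olfr648 (chromosome 7, 104177598 to 104183392, minus strand) held 1096 and 966 reads in the controls and 148, 450 and 527 reads in irradiated replicates 1, 2 and 3. Irradiated replicate 1 lay far below the other irradiated libraries. Olfr1152 (chromosome 2, 87866492 to 87874156, plus strand) held 504 and 280 reads in the controls and 189, 206 and 320 reads in the irradiated libraries, and its groups overlapped. Olfr1033 (chromosome 2, 86020633 to 86045171, plus strand) held 160 and 138 reads in the controls and 92.0, 74.0 and 97.0 in the irradiated libraries.

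Olfr1033 showed how far the scale matters. On the TPM scale it stood at 164 and 164 in the controls and at 99.8, 89.6 and 94.6 in the irradiated libraries, above Olfr784 in every library, while its level in CPM (counts scaled to library size by TMM) was 5.60 and 5.18 against 228 and 147 for Olfr784 in the controls. Its reads sat almost wholly (98.6%) on a transcript of 316 bases with 116 coding bases, and TPM divides by an effective length that is small for so short a transcript.

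The next members held far fewer reads. Olfr1459 held 165 and 128 reads in the controls and 26.7, 25.1 and 32.9 in the irradiated libraries, with no overlap. Olfr95 held 99.3 and 88.3 against 55.1, 42.1 and 70.6 reads, also without overlap. Olfr1330 held 102 and 66.8 against 43.7, 65.0 and 70.2 reads, so that its groups overlapped.

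Olfr2, known as the octanal receptor I7 and long used as a model odorant receptor, held 116 and 89.8 reads in the controls and 29.4, 23.2 and 42.5 in the irradiated libraries. Olfr976 held 115 and 51.0 against 35.0, 35.0 and 44.0 reads. In both genes every irradiated library lay below both controls.

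The reads were not assigned to the transcripts that are bare coding sequences. Of 139 annotated transcripts of the members, 54 held reads, and in 40 members at most 0.1% of the reads lay outside 1 transcript. In 29 members the annotation also has a coding transcript with at most 10 untranslated bases, and these 29 transcripts held 0 reads in all. A read within the coding sequence can fit both a bare and a longer transcript, so this division by Salmon is an estimate. The positions of reads along a transcript were not examined. Over all libraries, 95.5% of the members' reads lay on coding transcripts with at least 500 bases of UTR, 1.27% on a coding transcript with shorter UTRs (that of Olfr1033), and 3.26% on transcripts without a coding sequence. The first of these shares was 95.9% and 95.3% in the controls and 94.3%, 93.8% and 96.1% in the irradiated libraries, and the groups overlapped. Olfr784 and Olfr1388 weigh most in these shares. Without them, transcripts without a coding sequence held 12.4% and 10.6% of reads in the controls and 11.1%, 11.6% and 9.23% in the irradiated libraries.

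Leading transcripts were mostly 3′ UTR. In the 42 members led by a coding transcript, the median 5′ UTR was 228 bases, the median coding sequence 945 bases and the median 3′ UTR 3226 bases, and the coding sequence made up 6.03% to 45.3% of the transcript, with a median of 21.9%. The coding sequence lay within 1 exon in 39 of them. There was 1 exon before that of the start codon in 26 transcripts, 2 in 9, 3 in 4 and none in 3. Of all 47 leading transcripts, 46 are annotated with more than 1 exon, and Olfr624 was led by a transcript of a single exon.

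For Olfr784 all reads were assigned to Olfr784-202 (3119 bases, 3 exons, 555 bases of 5′ UTR and 1604 of 3′ UTR), and none to Olfr784-201, which is the coding sequence alone. For Olfr1388 all were assigned to Olfr1388-202 (3034 bases, 4 exons), and for Olfr648 to Olfr648-202 (2929 bases, 2 exons). Olfr1307 had the longest leading transcript, with 15582 bases of which 14400 are 3′ UTR.

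There were exceptions. Olfr1459, Olfr1330, Olfr1385 and Olfr354 were led by processed transcripts, which carry no annotated coding sequence, and Olfr56 by a transcript with a retained intron. Olfr1278 was led by a transcript annotated for nonsense-mediated decay. Olfr374 divided its reads between Olfr374-202 (56.8%) and the noncoding Olfr374-203 (43.2%). Olfr1419 held its reads on Olfr1419-203 in both controls and irradiated replicate 2 and on Olfr1419-202 in irradiated replicates 1 and 3. These 2 coding transcripts are of 3087 and 2918 bases, and Salmon's division of reads between isoforms is an estimate.

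**Figure D2:**
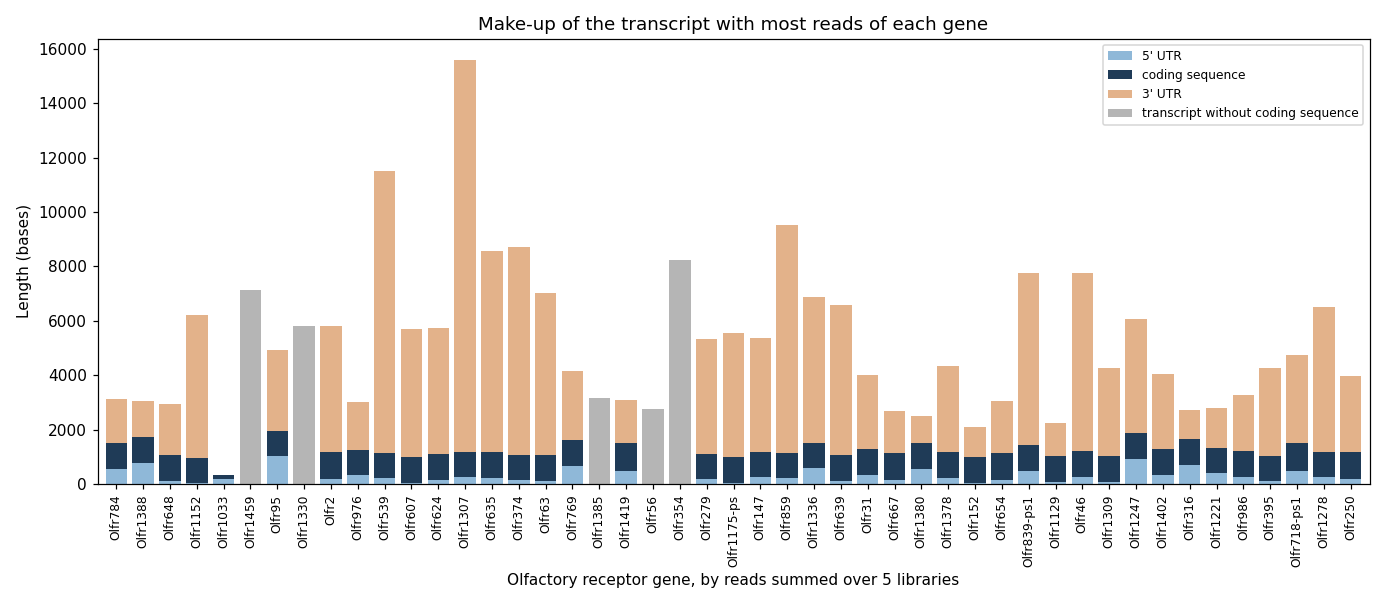
Length in bases of the leading transcript of each of the 47 genes, divided into 5′ UTR, coding sequence and 3′ UTR, with transcripts without a coding sequence in grey and the genes ordered by summed reads. The 3′ UTR is the largest division in most bars, reaching 14400 bases in Olfr1307, while Olfr1033 is led by a transcript of 316 bases.

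Members had longer annotated transcripts than the rest of the family, a description with no test since both reads and annotation grow with transcript length. The median length of the longest transcript of a gene was 5129 bases in the members, 3774 bases in the receptor genes with reads below the limit and 2086 bases in those with 0 reads. None of the 107 receptor genes whose longest transcript is under 1200 bases was a member, and 104 of these 107 held 0 reads. Among the 61 genes with a transcript of 6000 bases or more, 16 (26.2%) were members.

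The members were spread over 13 chromosomes, with 11 on chromosome 2, 11 on chromosome 7, 7 on chromosome 11 and 6 on chromosome 9, which hold 294, 244, 82 and 132 coding receptor genes. A median of 25 other coding receptor genes lay within 500 kb of a member, and only Olfr1402 and Olfr718-ps1 had none. The nearest upstream gene on the same strand with at least 100 reads was a median of 373 kb away. It lay within 50 kb for 5 members. For Olfr1385 it was Olfr1388 at 43.0 kb, for Olfr539 it was Olfr46 at 42.3 kb, for Olfr147 it was Olfr250 at 30.3 kb, for Olfr1307 it was Olfr1309 at 30.4 kb, and for Olfr718-ps1 it was the zinc finger gene Rbak at 24.6 kb. No gene with at least 100 reads overlapped the span of a member on the same strand.

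Exons of 6 members overlapped exons of another gene on the same strand, and exons of 2 overlapped one on the opposite strand. The overlapping genes that were in the files held 0 reads each. Among the 10 members with the most reads this touched Olfr1152, which shares 527 exon bases with the processed pseudogene Gm13745. Only Olfr1129 had a near-identical gene (Olfr1130, at 95% identity over 80% of the length), so its reads are uncertain.

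The members with the most reads also shared sequence with far more abundant genes. In Olfr784, 47.9% of the 31-base words of the leading transcript occurred in another gene, with 0% in the 5′ UTR, 41.2% in the coding sequence and 69.3% in the 3′ UTR. Of its 1479 shared words, 552 occurred in Slc38a6, the gene with the most of them, which held 333883 reads, and 324 words were shared with D10Wsu102e, which held 677759 reads. In Olfr1388, 21.3% of words were shared, 300 of them with D10Wsu102e. Between groups, Slc38a6 had a log2 fold change of −0.74 ± 0.23 (SE) and D10Wsu102e of −1.37 ± 0.28 (SE). Olfr784 stood at −1.38 and Olfr1388 at −1.46. With an offset for transcript length, described further on, the values were −0.55 ± 0.21 and 1.14 ± 0.38 (SE), against −1.37 for Olfr784 and −1.48 for Olfr1388. In control replicate 2, D10Wsu102e stood at 10260 CPM but 152 TPM, and Olfr784 at 228 CPM and 146 TPM. The transcript of D10Wsu102e is thus far longer than most, and its value with the offset is uncertain. Members with fewer reads shared words with D10Wsu102e too, with 813 in Olfr839-ps1, 686 in Olfr1307 and 505 in Olfr639. Others, such as Olfr1309 and Olfr1402, shared none with it. The part of shared sequence in the levels of Olfr784, Olfr1388 and the other members was not tested.

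Olfr1033, Olfr1378, Olfr1402 and Olfr316 held a whole number of reads (within 0.05) in all 5 libraries, as an estimate does when no read is divided between transcripts of different genes. Whole numbers did not mean that no words were shared. The shares were 11.89% in Olfr1033, 8.13% in Olfr1378, 0.12% in Olfr1402 and 22.91% in Olfr316. Olfr1402 held 32 reads in each control and 17, 7 and 20 in the irradiated libraries. Olfr1378, a gene with an overlap of its groups, held 14.0 and 32.0 against 23.0, 15.0 and 32.0 reads. Of these, Olfr1033 was named by rule for its reads, and the other 3 were picked with their values known.

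The comparison of irradiated with control cells asked which members changed 24 h after 5 Gy. All 47 members passed edgeR's filter on low counts and were tested with 14106 genes in all. Irradiated libraries lay below both controls in 38 members and above both in 0, and 9 members overlapped. Over all genes tested, irradiated libraries lay below both controls in 29.3%. By the quasi-likelihood test of edgeR, adjusted over all genes by Benjamini-Hochberg, 10 members (21.3%) fell at an adjusted p under 0.05, against 13.0% of all genes tested. None rose (0 also at an unadjusted p under 0.05, and 0 with DESeq2), against 12.7% of all genes. At an unadjusted p under 0.05, 24 members were lower, against 20.1% of all genes tested. In bulk RNA, fewer cells with a transcript and less of it per cell cannot be told apart.

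The members that fell were Olfr784, Olfr1388, Olfr1459, Olfr2, Olfr607, Olfr63, Olfr354, Olfr1129, Olfr1309 and Olfr1247. With the study's further threshold of a log2 fold change below −1.5, 8 remained, all but Olfr784 and Olfr1388, against 1.9% of all genes. The median log2 fold change of the members was −1.38, with quartiles of −1.72 and −0.98, against 0.02 over all genes tested, and 45 of 47 members had a value below 0. Only 24 members reached 100 reads in the controls alone and 10 in the irradiated libraries alone, so the higher libraries had more weight in choosing the members.

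The number of calls depended on the libraries. Without control replicate 2, which leaves 1 control, 0 members fell at an adjusted p under 0.05 (edgeR, with the lone control assumed to vary like the irradiated libraries), 13 were lower at an unadjusted p under 0.05 and the median log2 fold change was −0.99. Over all genes the number that fell then dropped from 1827 to 175. No share of all genes at an unadjusted p was counted without control replicate 2, so the members' count at that p has no reference. The log2 fold changes without that control were −4.50 for Olfr1309 and −2.05 for Olfr1459, and −1.01 and −0.88 for Olfr784 and Olfr1388. Without irradiated replicate 1 the count was 5, and without irradiated replicate 2 it was 4. A replicate block left 5.

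The 5 members with the smallest p among those that fell were Olfr1459, Olfr784, Olfr1309, Olfr1388 and Olfr607. Olfr1459 had a log2 fold change of −2.21 ± 0.37 (SE, edgeR adjusted p = 0.00922). Olfr784 had one of −1.38 ± 0.28 (SE, edgeR adjusted p = 0.0129), and Olfr1388 one of −1.46 ± 0.31 (SE, edgeR adjusted p = 0.0144). All 3 were lower in 3 of 3 irradiated libraries than in either control.

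Olfr1309 showed the largest difference. It held 50.8 and 52.6 reads in the controls and 0, 4.0 and 2.08 in the irradiated libraries, a log2 fold change of −4.44 ± 0.92 (SE, edgeR adjusted p = 0.0139) whose size depends on the few irradiated reads. Olfr607 held 149 and 68.8 against 21.7, 11.4 and 22.5 reads, a log2 fold change of −2.39 ± 0.51 (SE, edgeR adjusted p = 0.0154). Olfr1309 shared 0.61% of its words with other genes, Olfr607 9.28% and Olfr1459 25.41%. Of the 1800 shared words of Olfr1459, 1064 occurred in G430049J08Rik. That gene held 67.7 reads and had a log2 fold change of −2.44 ± 0.87 (SE). The part of shared sequence in the value of Olfr1459 was not tested.

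Of the remaining members with the most reads, Olfr2 fell by 1.57 ± 0.42 on the log2 scale (SE, edgeR adjusted p = 0.03). The values of Olfr648 (−1.29 ± 0.43, edgeR adjusted p = 0.0568), Olfr976 (−0.95 ± 0.47, 0.165) and Olfr1152 (−0.56 ± 0.29, 0.184) did not pass. Neither did those of Olfr1033 (−0.61 ± 0.30, 0.155), Olfr95 (−0.60 ± 0.38, 0.264) and Olfr1330 (−0.33 ± 0.42, 0.589). Olfr1419, which was above 0 with a value of 0.68 ± 0.73, had irradiated libraries at 75.3, 38.1 and 14.2 reads around controls at 30.4 and 29.7, and was picked with its values known.

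**Figure D3:**
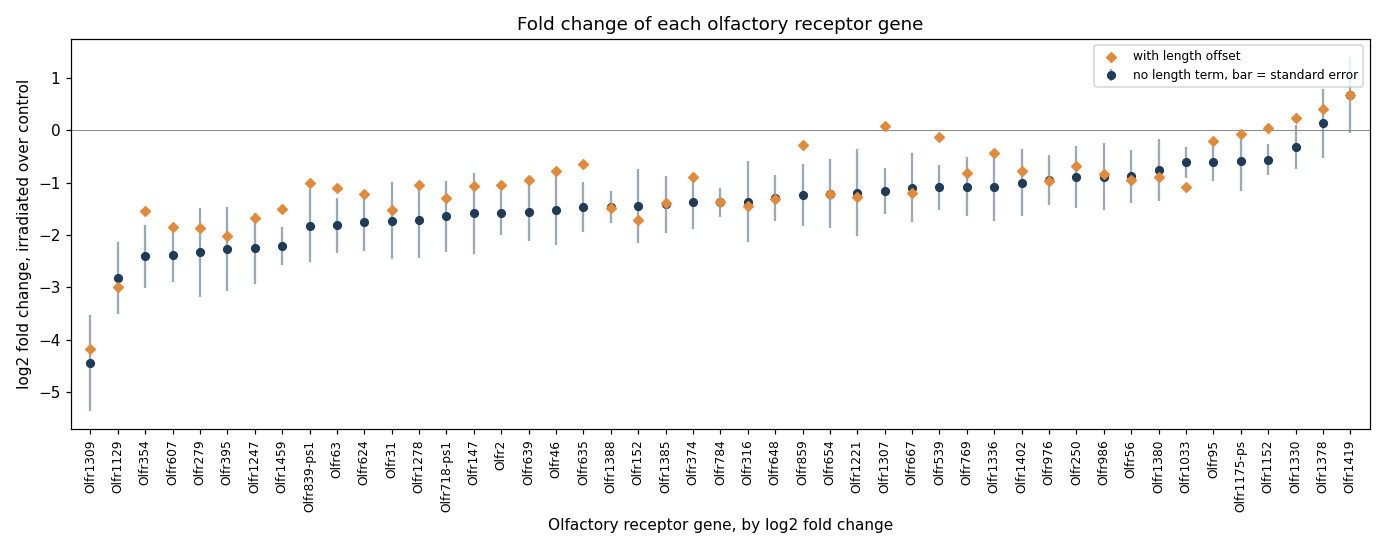
Log2 fold change of irradiated over control for each of the 47 genes, ordered by value, from the fit without a length term (dark points with standard errors) and from the fit with a length offset (orange diamonds). Without the length term 45 of 47 points lie below 0, and with it 42 of 47.

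Fold changes in these libraries moved with transcript length over all genes. Among tested genes that are not members, the median log2 fold change was 0.91 for read-weighted lengths under 1000 bases, −0.07 from 3000 to 4000 bases and −1.0 above 8000 bases. The members had a median length of 4737 bases against 2895 bases for all genes tested. Within the same length bins the members' medians were −1.22 from 3000 to 4000 bases (7 members) and −1.58 from 4000 to 6000 bases (16 members, with −0.33 in the other genes). Above 8000 bases they were −1.24 (5 members) against −1.0.

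With an offset that removes each library's trend with length, 3 members fell at an adjusted p under 0.05 by edgeR (Olfr784, Olfr1388 and Olfr1309), which is 6.38% of members against 1.69% of all genes tested. The median log2 fold change of the members was then −1.06, against 0.05 over all genes, and 42 of 47 were below 0. Under it Olfr784 had a value of −1.37 and Olfr1388 of −1.48, and Olfr1309 of −4.18, with adjusted p of 0.0405, 0.0447 and 0.0487. The sign turned in 3 members, with Olfr1307 going from −1.16 to 0.08, and Olfr1152 and Olfr1330 to 0.04 and 0.22. With both the replicate block and the length offset in edgeR, 0 members passed, and over all genes 19 fell. At an unadjusted p under 0.05, 8 members were lower. The share of all genes at that unadjusted p was not counted for this fit, so the 8 have no reference. The offset removes any trend with length, whatever its source, and the part of RNA or library quality in it was not tested.

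**Figure D4:**
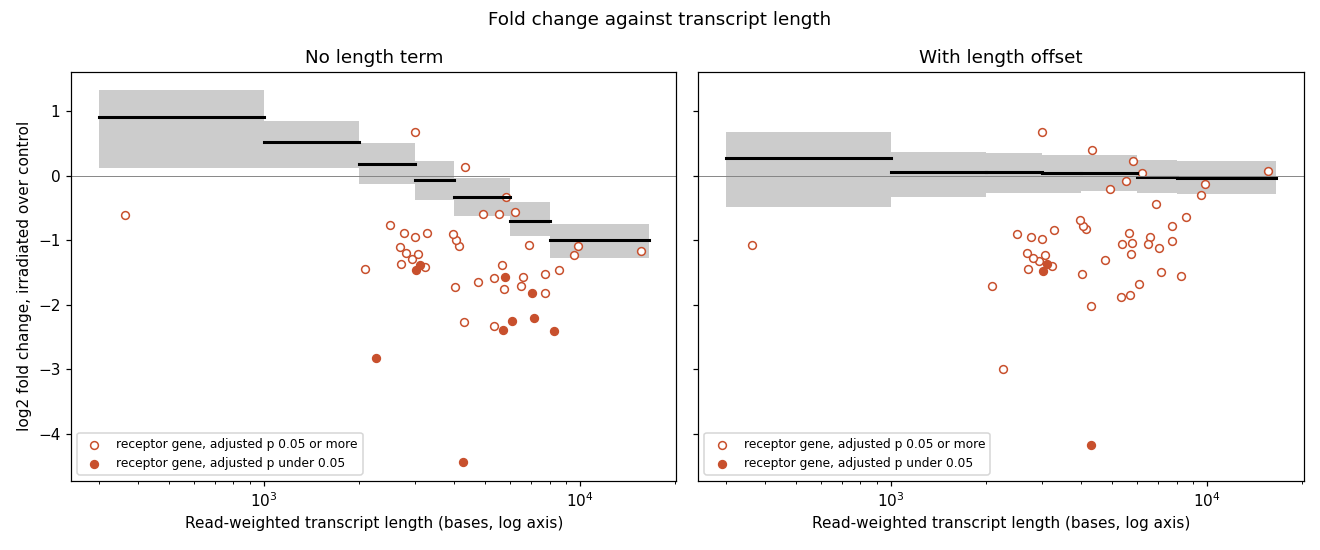
Log2 fold change against read-weighted transcript length in bases (log axis) for the 47 genes (orange, filled where the adjusted p is under 0.05), without a length term on the left and with the length offset on the right. Black lines and grey bands are the median and quartiles of all other tested genes in each length bin, which fall from 0.91 to −1.0 on the left and stay within 0.27 and −0.04 on the right, and most orange points lie below the bands in both panels.

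The members were also set beside other genes of like length and depth. Between the members' quartiles of length (3048 to 6360 bases) and of reads (112 to 261), 272 genes that are not members had a median log2 fold change of −0.30, and 15 (5.51%) fell. The 10 members in that range had a lower median, −1.40, but 0 of them fell at an adjusted p under 0.05 by edgeR. At an unadjusted p under 0.05, 5 of them were lower, against 20.1% of all genes tested, and 2 fell by DESeq2. The 272 genes were not counted at an unadjusted p or by DESeq2.

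Summed over the members, the level was 628 and 391 CPM in control replicates 2 and 3 and 162, 179 and 258 in the irradiated libraries. Without Olfr784 and Olfr1388 it was 163 and 124 against 49.7, 66.3 and 72.3 CPM. On the TPM scale the sums were 554 and 406 against 180, 176 and 230. On all 3 measures the irradiated libraries lay below both controls.

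When each transcript was its own unit, 49 member transcripts passed the filter among 40440, and 0 of them fell or rose at an adjusted p under 0.05 by edgeR, as did 0 of all transcripts. At an unadjusted p under 0.05, 7 member transcripts were lower, against 8.31% of all transcripts tested, and 0 were higher. The smallest adjusted p among the members was 0.119, for the noncoding Olfr1459-203.

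Receptor genes below the limit of 100 reads showed values of the same sign. Their summed reads were 3913 and 3195 in the controls and 1106, 1055 and 1451 in the irradiated libraries. Of the 91 that could be tested, 15 fell and 0 rose by edgeR, against 13.0% and 12.7% of all genes tested. DESeq2 called 12 lower and 0 higher. At an unadjusted p under 0.05 by edgeR, 33 were lower and 0 higher, against 20.1% lower over all genes tested. Their median log2 fold change was −1.49, and −1.35 with the length offset. The vomeronasal receptors, another chemoreceptor family, also held reads. Of 200 Vmn1r genes 14 held at least 100 reads, and of 120 Vmn2r genes 19 did, and their tested genes had medians of −1.53 and −1.36. Of 15 trace amine-associated receptors (Taar) and 7 formyl peptide receptors (Fpr) none reached 100 reads. The members' fall was thus not shown to be particular to them.

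Genes that act with the receptors in sensory neurons were counted from lists chosen for their roles. As a reference for every list, 13.0% of all genes tested fell and 12.7% rose by edgeR. At an unadjusted p under 0.05, 20.1% were lower. The share higher at an unadjusted p was not counted, so the lists' counts of higher genes at that p have no reference. Over all genes DESeq2 called 2161 lower and 2385 higher. Of 17 genes of odorant signal transduction 13 were tested, 3 fell and 0 rose by edgeR, as by DESeq2, and at an unadjusted p under 0.05, 4 were lower and 0 higher. Those that fell were the ion transporters Slc12a2 (−0.67 ± 0.13, adjusted p = 0.013) and Slc8a1 (−1.01 ± 0.20, adjusted p = 0.0131), and the phosphodiesterase Pde1c (−0.84 ± 0.20, adjusted p = 0.0197). With the length offset Slc12a2 and Pde1c stood at −0.03 and −0.15 and no longer passed. Gnal and Adcy3 held 4705 and 9313 reads and did not pass (−0.18 ± 0.17 and −0.46 ± 0.19, adjusted p = 0.459 and 0.102).

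Of 12 genes of receptor trafficking 9 were tested, and Reep5, a shaper of the endoplasmic reticulum, rose (0.74 ± 0.16, edgeR adjusted p = 0.015), while 0 fell. At an unadjusted p under 0.05, 4 were higher and 0 lower, and DESeq2 called 3 higher and 0 lower. Of 26 genes tied to receptor choice and to the silencing of receptor clusters 24 were tested, 9 fell and 0 rose by edgeR (10 and 1 by DESeq2), and at an unadjusted p under 0.05, 10 were lower and 2 higher. The 6 with the smallest p were Nfib (−1.55 ± 0.19), Cbx5 (−1.04 ± 0.16), Bptf (−1.38 ± 0.21), Dnmt1 (−0.85 ± 0.15), Dnmt3a (−0.96 ± 0.19) and Setdb1 (−0.57 ± 0.15), with edgeR adjusted p from 0.00825 to 0.0285. They encode a transcription factor, heterochromatin protein 1 alpha, a chromatin remodelling subunit, DNA methyltransferases and a histone H3K9 methyltransferase. With the length offset the value of Nfib was −0.76 and still passed, and the values of the other 5 were between −0.39 and −0.08 and did not. Eif2ak3 of the same list, picked with its values known, passed as higher with the offset (0.81 ± 0.17, edgeR adjusted p = 0.0413). Without the offset it did not (0.50 ± 0.17, edgeR adjusted p = 0.0591).

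Lhx2 and Ldb1, which bind the enhancers of receptor genes in sensory neurons, held 10450 and 14822 reads and did not pass (0.33 ± 0.14 and 0.30 ± 0.15, edgeR adjusted p = 0.117 and 0.174). Of the neuroendocrine markers Syp, Calca and Uchl1 rose (0.64 ± 0.17, 1.18 ± 0.37 and 1.14 ± 0.28) and Ncam1 fell (−1.20 ± 0.29), with edgeR adjusted p from 0.0227 to 0.0474. With the length offset these 4 no longer passed. Of the markers of sensory neurons, leukocytes, and fibroblasts and endothelium, 3, 1 and 3 were tested and 0 fell or rose by edgeR or DESeq2. At an unadjusted p under 0.05, 1 marker of sensory neurons was lower (Adcy3) and no other differed.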

How the data were processed

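Bulk RNA was sequenced from KP1 cells (2 control and 3 irradiated libraries). Single-cell samples were left out. The authors quantified reads with Salmon against mm10 and deposited estimated counts (expected counts, which need not be whole) and TPM per transcript, beside length and effective length. The submitters' processing notes name Salmon 0.8.2 and DESeq2 1.22.2. The annotation release and strandedness are not given in the sources used here. Of 113116 transcripts 112762 (99.69%) matched GENCODE M21 (GRCm38). Their estimated counts were summed to 35056 genes and rounded.

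Genes were compared with edgeR 4.0.16 (R 4.3.3) by filterByExpr, TMM and the quasi-likelihood test, with no block, and p-values were adjusted by Benjamini-Hochberg across the 14106 genes tested. A standard error is the log2 fold change divided by the square root of F. The length offset is a spline with 5 degrees of freedom on log length in each library. On counts simulated without a trend of fold change with length, edgeR recovered 94% of 200 changed genes with 9 false among 197 calls (13792 genes). The real libraries have such a trend, so these rates need not hold for them. Shared sequence was counted as 31-base words, and copies of a gene were sought with blastn 2.17.0 (95% identity over 80% of the length).

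Named are the 10 members with the most reads, the 5 with the smallest p that fell, the 3 on each side of the limit, and at most 6 genes passing the test per list (odorant signal transduction, receptor trafficking, receptor choice, and markers of sensory neurons, neuroendocrine cells, leukocytes, and fibroblasts and endothelium). Other genes are marked or belong to a full count. The values of 1 marker are not reported here. The members and lists were chosen with earlier results of these data known. Alternatives were DESeq2 1.42.0, other normalizations, filters, thresholds and units, the replicate block and left-out libraries. Only the numbers 2 and 3 are in both groups, and no source says that they mark a shared culture or day.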

Additional observations from a re-analysis of the deposited data

How the results depend on the processing

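No member rose under any alternative run, and the median log2 fold change of the members was below 0 in all of them. The count of 10 members that fell (adjusted p under 0.05) became 3 with the length offset, 5 with the replicate block, 0 with the replicate block and the length offset together, 21 at an adjusted p under 0.1, 0 with the transcript as the unit and, chosen after seeing the data, 4 of the 21 members with under 10% of their words shared (19.0%). Leaving out 1 library gave 0 to 12 members that fell, 0 without control replicate 2, a median of −1.58 to −0.99, and 175 to 1977 genes that fell and 95 to 2232 that rose over all genes, against 1827 and 1786. Over all genes, 494 fell and 602 rose with the replicate block, 239 and 331 with the length offset, 19 and 17 with both, and 268 and 230 beyond a log2 fold change of 1.5. At an adjusted p under 0.1, 2618 genes fell and 2710 rose. The log2 ratios of replicate 2 to replicate 3 correlated at −0.17 between groups, which gives no sign of a pairing. Whether equal numbers mark a shared culture or day cannot be told from this value. With the numbers crossed, a pairing added after seeing the data, 9 members fell and over all genes 2670 fell and 3026 rose. DESeq2 called 14 members lower and 0 higher, and over all genes 2161 lower and 2385 higher.

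The number of members was 110 at 50 reads and 19 at 200 reads. With UTRs of at least 200 bases counted as long, 96.7% of reads lay on long-UTR transcripts and 0% on short ones. Of 12 members named by the rule, 126 of 154 values kept direction and side of the threshold, 20 lost the call, 4 gained it and 4 turned sign, all 4 with a length offset. Olfr1152 stood at 0.043, or 0.20 with the replicate block as well, and Olfr1330 at 0.22, or 0.40 with the replicate block as well. The cause of these changes was not tested. Most members hold under 400 reads over 5 libraries, which limits the precision of a single gene.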
